A study of Mus musculus with 6 samples.

Results

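The genes described here are IL7R, which encodes the alpha chain of the interleukin 7 receptor, its ligands IL7 and TSLP, the shared receptor chain IL2RG, the kinases JAK1 and JAK3, and the transcription factors STAT5A and STAT5B. They were taken by gene symbol from the deposited expression table. Of these 8 genes, 7 had a row among 16191 rows, and IL2RG was not analysed here. The genes were selected on measured values, since the list was drawn up around IL7R after its FPKM was seen to differ between the groups in this same comparison. The differences of IL7R and of the other genes on the list are therefore given as descriptions with no p-value, and where a gene is said to meet the rule for a call, that only places it in the table and supports nothing.

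Interleukin 7 is made by stromal and epithelial cells and is best known for keeping developing and resting lymphocytes alive. It binds IL7R paired with the common gamma chain encoded by IL2RG. JAK1 sits on IL7R and JAK3 on the gamma chain, and once active they phosphorylate STAT5A and STAT5B, which then pair up and switch on genes of survival and growth. TSLP, an alarm cytokine of epithelial cells, uses IL7R together with CRLF2 instead of the gamma chain. Outside lymphocytes, IL7R has also been described in some stromal and endothelial cells.

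The sample labels describe RPE-choroids of C57BL/6J mice, and divide the 6 libraries evenly between AAV-GFP and AAV-PDGF-D (3 each). Both groups had received an adeno-associated virus under the retina 4 weeks earlier, in young adult animals by the methods, carrying either GFP or the human PDGFD coding sequence behind the human VMD2 promoter, which is active in the retinal pigment epithelium. The aim was to find what PDGF-D made in the pigment epithelium changes in that tissue. It is not stated that each library is from its own animal, so p-values measure only the spread between these libraries, which may be technical.

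The rows of the table are human genes, 15504 with a human Ensembl ID and 687 named as new genes of Homo sapiens, although the labels describe mouse tissue. The values are therefore given for the libraries by their labels, and are not read as levels in mouse eyes. The row of PDGFD itself was at 6.56 to 6.87 FPKM with the label AAV-GFP and at 5.24 to 6.36 FPKM with the label AAV-PDGF-D, so the vector's gene was not higher in the libraries labelled for it. FPKM is a fragment count scaled for gene length and library size. The gene of its receptor, PDGFRB, differed by -0.36 on the log2(FPKM + 0.1) scale and was not called. Genes listed as markers of the pigment epithelium were uneven, with means of 719 FPKM for EZR and 358.5 FPKM for CRIM1. RPE65, the retinoid isomerase that defines the tissue, was at 0.869 FPKM. RLBP1, TTR and BEST1 were also low, at 2.12, 1.81 and 0.42 FPKM, while MITF, PMEL and TYRP1 were at 33.7, 51.5 and 19.5 FPKM. PMEL and TYRP1, pigment genes, were called lower (log2 differences of -0.84 and -0.80, adjusted p = 0.00293 and 0.0124 from limma). The contractile genes TAGLN and ACTA2 were at 1495 and 308.8 FPKM, the fibroblast genes COL1A1 and THY1 at 140.1 and 39.1 FPKM, and the endothelial genes KDR and PROX1 at 9.06 and 0.235 FPKM. The remaining endothelial markers with a row, VWF, PECAM1 and CDH5, were low, at 0.182, 0.167 and 0.0815 FPKM. Hemoglobin reads marked 2 libraries: HBA1, HBA2 and HBB summed to 340.3 FPKM in AAV-GFP replicate 1, to 421.8 FPKM in replicate 3 of AAV-PDGF-D and to at most 0.319 FPKM in the other 4. Steps among the lowest rows put the libraries within 1.19-fold of each other in depth, while the number of reads behind each is unknown.

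IL7R was higher in every library labelled AAV-PDGF-D than in any labelled AAV-GFP. The IL7R row was at 2.76, 2.10 and 1.78 FPKM in AAV-GFP replicates 1, 2 and 3, and at 4.47, 4.37 and 4.21 FPKM in AAV-PDGF-D replicates 1, 2 and 3. The groups did not overlap, and the libraries labelled AAV-PDGF-D lay close together while those labelled AAV-GFP spread more widely. The means were 2.21 ± 0.501 and 4.35 ± 0.129 FPKM (SD, n = 3 each), a ratio of 1.97. The nearest pair of libraries from opposite groups differed 1.52-fold in IL7R and the farthest 2.51-fold. In a bulk sample, more cells that carry a transcript and more transcript per cell cannot be told apart.

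On the log2(FPKM + 0.1) scale the IL7R difference was 0.97 (standard error 0.16). A row was called where limma gave an adjusted p of at most 0.1, the fold change on that scale was at least 1.5 and the mean was at least 1 FPKM, which follows the thresholds of the study's methods. IL7R met this rule and was the only 1 of 4 listed genes with a mean of at least 1 FPKM to do so. Of all rows at that level, 2.01% were called higher and 1.75% lower. Since IL7R was picked for this difference, nothing is read from that count. Of all calls, 53.5% were higher, and 43.4% with median-of-ratios scaling or 39.8% with upper quartile scaling. Under the 18 alternative settings the IL7R difference lay between 0.75 with a pseudocount of 1 and 1.15 without both libraries with hemoglobin reads. This range describes the same 6 libraries on which IL7R was picked and is no independent support.

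**Figure D1:**
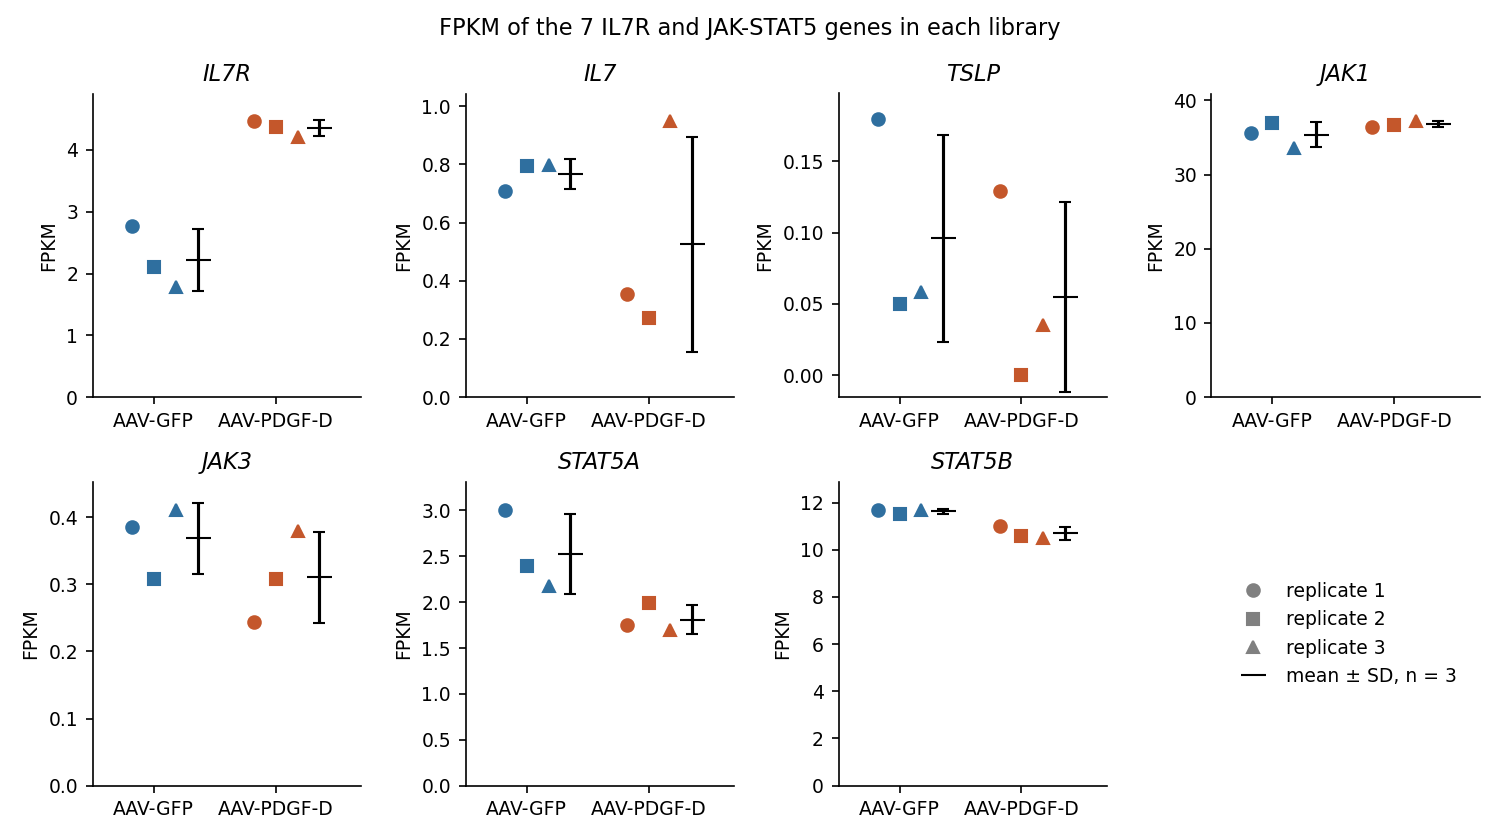
FPKM (vertical axis, linear) of the 7 genes with a row, in the 3 libraries labelled AAV-GFP (blue) and the 3 labelled AAV-PDGF-D (orange). Marker shapes give the replicate number, and black bars the mean ± SD (n = 3). The IL7R values of the groups are apart, at 1.78 to 2.76 and 4.21 to 4.47 FPKM, and STAT5A and STAT5B lie lower with the label AAV-PDGF-D.

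Neither ligand had a higher mean with the label AAV-PDGF-D, and both were too low to be called. IL7, the ligand that signals through the gamma chain, was at 0.708, 0.796 and 0.797 FPKM in AAV-GFP replicates 1, 2 and 3 and at 0.355, 0.273 and 0.949 FPKM in AAV-PDGF-D replicates 1, 2 and 3. AAV-PDGF-D replicate 3 held the highest IL7 value of all 6 libraries and its companions the lowest, so the groups overlapped. The means were 0.767 ± 0.0512 and 0.526 ± 0.369 FPKM (SD, n = 3 each), with a difference of -0.62 (standard error 0.37) on the log2 scale. Without AAV-PDGF-D replicate 3, which carried hemoglobin reads, the IL7 difference was -1.07 (standard error 0.24), and without AAV-PDGF-D replicate 2 it was -0.33. The mean of IL7 was under 1 FPKM, so it could not be called in either case.

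TSLP, the epithelial ligand, was close to the bottom of the table. Its values were 0.18, 0.0496 and 0.0587 FPKM in AAV-GFP replicates 1, 2 and 3 and 0.129 and 0.0355 FPKM in AAV-PDGF-D replicates 1 and 3, and it was listed at 0 in AAV-PDGF-D replicate 2. Replicate 1 was the highest under both labels and the groups overlapped. With a mean of 0.0754 FPKM, TSLP fell below the minimum of 0.1 FPKM set for testing, which the other 6 genes passed. The row of CRLF2, the partner chain for TSLP, was not analysed here.

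Of the kinases, JAK1 was the most abundant gene on the list. JAK1, which serves many cytokine receptors beside IL7R, was at 35.7, 37.0 and 33.6 FPKM in AAV-GFP replicates 1, 2 and 3 and at 36.5, 36.7 and 37.2 FPKM in AAV-PDGF-D replicates 1, 2 and 3. The groups overlapped, with means of 35.4 ± 1.71 and 36.8 ± 0.384 FPKM (SD, n = 3 each) and a log2 difference of 0.06 (standard error 0.05). JAK3, which pairs with the gamma chain and is mostly a kinase of blood cells, was far lower.

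JAK3 was at 0.385, 0.309 and 0.411 FPKM in AAV-GFP replicates 1, 2 and 3 and at 0.245, 0.307 and 0.379 FPKM in AAV-PDGF-D replicates 1, 2 and 3. The ranges of JAK3 overlapped, and the log2 difference of -0.20 was smaller than its standard error of 0.26. Within a library, the FPKM of JAK1 was 81.6 to 149.1 times that of JAK3. The mean of JAK3 was 0.339 FPKM, under the minimum for a call.

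Both STAT5 genes were lower in every library labelled AAV-PDGF-D, by less than the fold threshold. STAT5A was at 3.01, 2.39 and 2.18 FPKM in AAV-GFP replicates 1, 2 and 3 and at 1.75, 1.99 and 1.699 FPKM in AAV-PDGF-D replicates 1, 2 and 3. The groups of STAT5A did not overlap, though the lowest AAV-GFP library and the highest AAV-PDGF-D library were close, at a ratio of 0.912. The means were 2.52 ± 0.432 and 1.81 ± 0.153 FPKM (SD, n = 3 each), with a log2 difference of -0.45 (standard error 0.15) against a threshold of 0.585 in size. Leaving out both libraries with hemoglobin reads gave a STAT5A difference of -0.28 (standard error 0.17), and leaving out AAV-GFP replicate 1 alone, the highest library, gave -0.32.

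STAT5B, the closely related second gene, was at 11.7, 11.5 and 11.7 FPKM in AAV-GFP replicates 1, 2 and 3 and at 11.01, 10.6 and 10.5 FPKM in AAV-PDGF-D replicates 1, 2 and 3. Its groups did not overlap, and the spread within each was narrow. The means were 11.6 ± 0.109 and 10.7 ± 0.272 FPKM (SD, n = 3 each), and the log2 difference was -0.12 (standard error 0.06). Setting aside IL7R, which was picked for its difference, 2 of the 3 other listed genes above the minimum level (STAT5A and STAT5B) had groups that did not overlap. The same held for 43.7% of all 11444 rows of that level, 27.3% with AAV-PDGF-D higher and 16.4% with it lower, and nothing is read from the count. The sign of the difference was the same under every alternative setting for STAT5A, STAT5B and JAK1 (18 each) and for IL7 and JAK3 (17 each). These settings reuse the same libraries, so the shared sign is no independent support. The JAK1 difference fell to 0.0039 (standard error 0.048) with upper quartile scaling. That of STAT5B ran from -0.10 to -0.17.

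**Figure D2:**
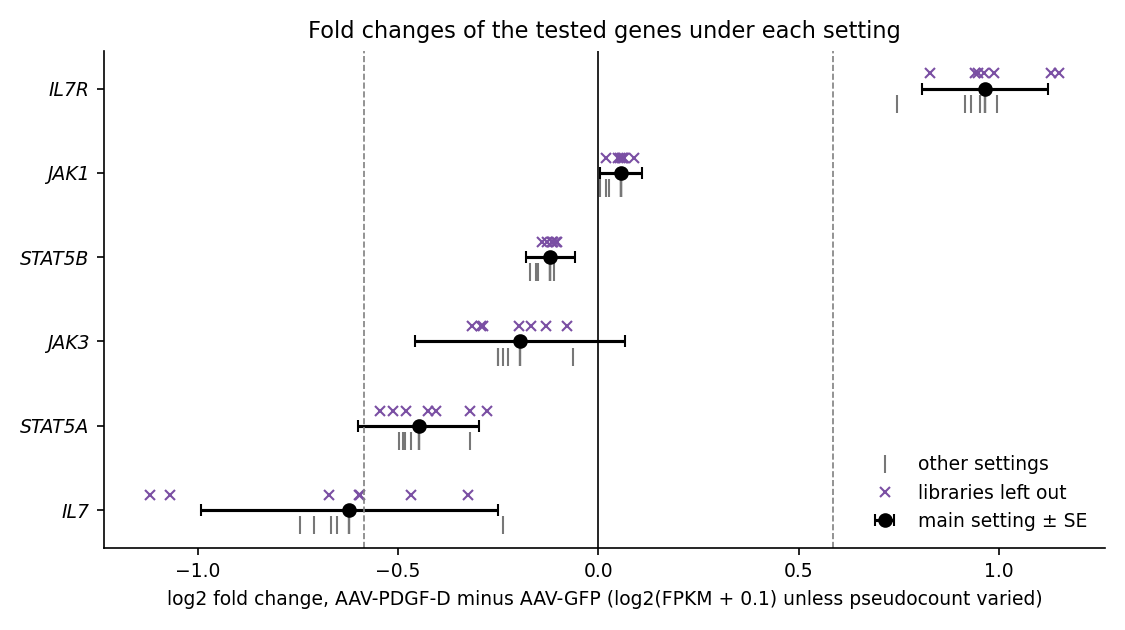
Log2 fold change (horizontal axis, AAV-PDGF-D minus AAV-GFP) of the 6 tested genes. Black points are the values in the text with their standard errors, grey ticks other settings and purple crosses fits with libraries left out, and dashed lines mark the fold threshold at 0.585 on either side of 0. The values of IL7R, the gene picked for its difference, run from 0.75 to 1.15 and those of IL7 from -1.12 to -0.24.

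By mean FPKM over the 6 libraries, the order was JAK1 (36.1), STAT5B (11.2), IL7R (3.28), STAT5A (2.17), IL7 (0.646), JAK3 (0.339) and TSLP (0.0754). JAK1 lay above 85.2% of all rows of the table, IL7R above 40.6% and TSLP above 13.2%. The neighbours IL7R and STAT5A changed places between the labels. The FPKM of IL7R was 0.918, 0.878 and 0.818 times that of STAT5A in AAV-GFP replicates 1, 2 and 3, and 2.55, 2.202 and 2.48 times in AAV-PDGF-D replicates 1, 2 and 3. STAT5A was thus the higher row in each library labelled AAV-GFP and the lower in each labelled AAV-PDGF-D. IL7 and JAK3 did not differ beyond their spread with the label AAV-PDGF-D, where IL7 ran from 0.273 to 0.949 FPKM and JAK3 from 0.245 to 0.379 FPKM. The ranges of the other neighbours with a row were apart within each label, except those of IL7R and STAT5A with the label AAV-GFP.

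Among the 10 cytokine receptor chains with a row that belong to the gamma chain family or are linked to STAT5, only LEPR and IL4R had a higher mean than IL7R. LEPR, the leptin receptor, was highest at 68.0 to 75.9 FPKM, and IL4R, the interleukin 4 receptor alpha chain, lay next at 3.58 to 4.63 FPKM. The range of IL7R over all libraries, 1.78 to 4.47 FPKM, overlapped that of IL4R. The log2 difference was 0.13 for IL4R (standard error 0.10) and 0.12 for LEPR (standard error 0.04), with limma's adjusted p at 0.42 and 0.0688. EPOR, the erythropoietin receptor, followed at 0.543 to 1.46 FPKM with a mean of 0.987, just under the minimum for a call, and had a log2 difference of -0.63 (standard error 0.23, adjusted p = 0.0906 from limma). IL2RB, which joins the gamma chain in the receptors for interleukins 2 and 15, was at most 0.193 FPKM. IL15, the only other gamma chain cytokine with a row, was at 1.31 FPKM, with a log2 difference of 0.23 (standard error 0.20, adjusted p = 0.47 from limma).

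Around these genes, 9 lists of 104 genes were examined. They covered other receptors and their ligands, kinases, STAT genes, STAT5 targets, restraints, and the PI3K and AKT arm. They also covered transcription factors linked to IL7R, glucocorticoid response genes, and epithelial alarmins with partners of TSLP. Of these 104 genes, 87 had a row and 67 a mean of at least 1 FPKM. None was called by limma in either direction (0 higher and 0 lower of 67, with 3.76% of all such rows called), and 24 of 67 had an unadjusted p under 0.05, against 38.7% of all rows. Without the fold threshold, 10 were called higher and 10 lower, or 14.9% each, against 20.9% and 11.7% of all rows (32.7% in either direction). The median log2 difference was 0.044 over the 67 genes and 0.037 over all 11444 rows of that level, and the single genes ran from -0.54 to 0.48.

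**Figure D3:**
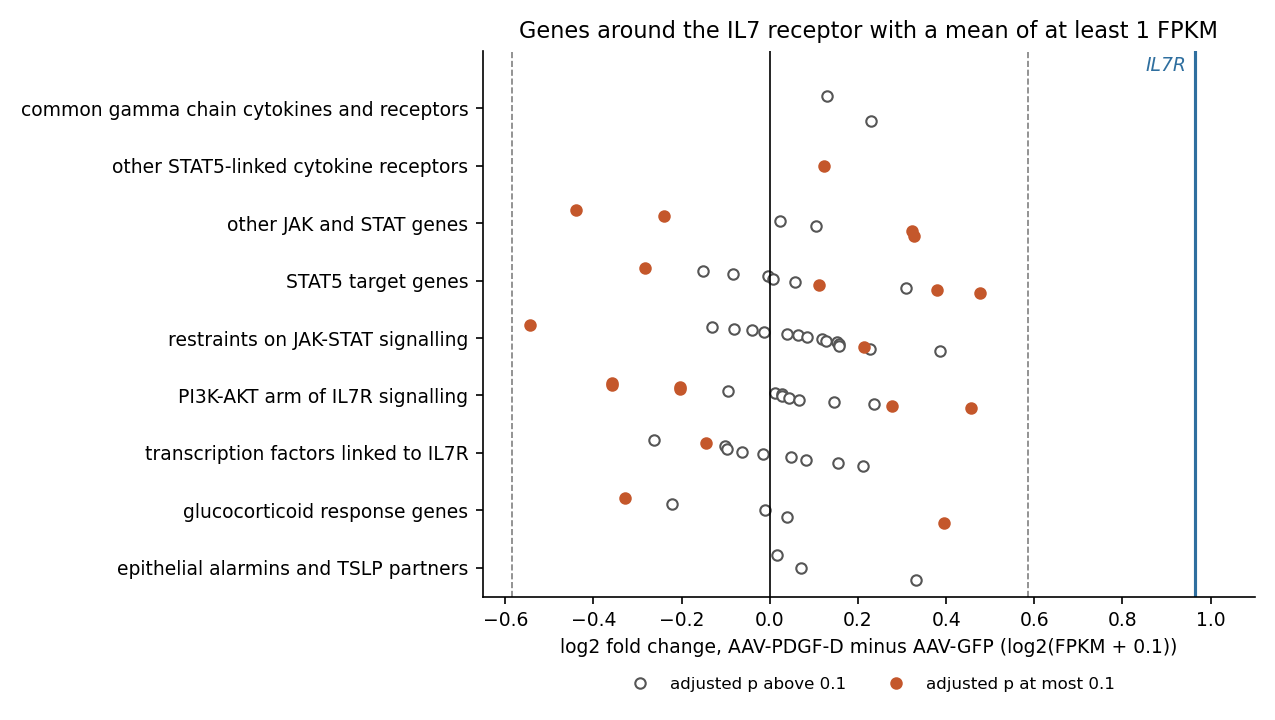
Log2 fold change (horizontal axis, AAV-PDGF-D minus AAV-GFP) of the genes around the interleukin 7 receptor with a mean of at least 1 FPKM, by list. Filled points had an adjusted p of at most 0.1 from limma, dashed lines mark the fold threshold and the blue line the value of IL7R. All 67 genes lie between the dashed lines and IL7R at 0.97 lies outside.

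The other kinases and STAT genes differed in both directions, each by less than 1.5-fold. TYK2, a relative of JAK1, was at 17.4 ± 1.03 and 21.9 ± 1.55 FPKM (SD, n = 3 each), a log2 difference of 0.33 (standard error 0.07, adjusted p = 0.0182 from limma). STAT2, which carries type I interferon signals, was at 30.9 ± 0.786 and 22.8 ± 1.52 FPKM (SD, n = 3 each), a log2 difference of -0.44 (adjusted p = 0.00389 from limma). STAT6, which serves IL4R, was at -0.24 (adjusted p = 0.0881 from limma), while STAT3 at 0.02 and JAK2 at 0.11 did not pass. STAT4, a STAT of lymphocytes, had a mean of 0.203 FPKM.

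Among STAT5 targets, 10 had the level for a call, of which 3 lay higher and 1 lower by adjusted p alone. The shares over all rows of that level were 20.9% and 11.7%, and nothing is read from these counts. The median log2 difference of the 10 targets was 0.033. CCND1, the cyclin D1 gene and the most abundant of them, was at 441 ± 4.72 and 574 ± 11.8 FPKM (SD, n = 3 each), a log2 difference of 0.38 (standard error 0.04, adjusted p = 0.00137 from limma). CCND3 differed by 0.48 (adjusted p = 0.00376 from limma), whereas CCND2, the cyclin D gene most often tied to STAT5, was at 0.01. BCL2L1, the gene of the survival protein BCL-XL, was at 0.06, BCL2, a survival gene downstream of the receptor in lymphocytes, at -0.15 and MYC at -0.01, none of which passed. MCL1, another survival gene, was at 0.11 (adjusted p = 0.0859 from limma). BCL6, a repressor that STAT5 holds down in lymphocytes, was at -0.28 (standard error 0.06, adjusted p = 0.0183 from limma).

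CISH, the feedback gene most directly tied to STAT5, was near the floor, at 0.101 to 0.225 FPKM with the label AAV-GFP and 0.120 to 0.202 FPKM with the label AAV-PDGF-D. SOCS1 and SOCS2, further feedback inhibitors, had means of 0.388 and 0.785 FPKM, and none of these 3 reached the level for a call. SOCS3 was at 3.63, 5.16 and 3.64 FPKM in AAV-GFP replicates 1, 2 and 3 and at 6.18, 6.80 and 3.11 FPKM in AAV-PDGF-D replicates 1, 2 and 3. Its log2 difference was 0.31 (standard error 0.28, adjusted p = 0.48 from limma). Without AAV-PDGF-D replicate 3, which was the lowest library for SOCS3 and carried hemoglobin reads, the difference was 0.65 and passed the call rule (adjusted p = 0.0526 from limma).

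Of 16 restraints with the level for a call, 1 lay higher and 1 lower by adjusted p alone. Of 14 genes of the PI3K and AKT arm, 2 lay higher and 4 lower. The shares over all rows of that level were 20.9% and 11.7%, and nothing is read from these counts. PTPN6, a phosphatase that dampens JAK signals in blood cells, lay closest to the fold threshold, at 3.51 ± 0.408 and 2.36 ± 0.136 FPKM (SD, n = 3 each). Its log2 difference was -0.54 (standard error 0.12, adjusted p = 0.0183 from limma), and it was called lower with upper quartile scaling at -0.59 (adjusted p = 0.0167) and without AAV-GFP replicate 3 at -0.60 (adjusted p = 0.0394). PTPN1 and DUSP3, the most abundant restraints, were at 0.13 and 0.04 and did not pass. PIK3R1, a regulatory subunit of PI3K, was at 0.46 (standard error 0.08, adjusted p = 0.00881 from limma) and PIK3CD, the catalytic subunit of leukocytes, at -0.36 (standard error 0.07, adjusted p = 0.0106 from limma). PIK3R2 and AKT1, the most abundant of this arm, were at 0.01 and 0.04. MTOR, the growth kinase downstream of AKT, was at 0.28, AKT2 at -0.20 and BCL2L11, the gene of the death protein BIM, at -0.36 (adjusted p = 0.0318, 0.0754 and 0.079 from limma). PTPN11, a phosphatase that also passes on growth factor signals, was at 0.21 (adjusted p = 0.0273 from limma).

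For the 10 transcription factors linked to IL7R with the level for a call, the median log2 difference was -0.039. TCF7 had the largest in size, at -0.26 (standard error 0.17, adjusted p = 0.317 from limma). GATA3, under that level at a mean of 0.662 FPKM, was at -0.46 (standard error 0.21, adjusted p = 0.152 from limma). FOXO1, which switches IL7R on in T cells, was at 0.08, ETS1 at 0.05, GABPA at 0.15, RUNX1 at 0.21 and NR3C1, the glucocorticoid receptor, at -0.06, and none passed an adjusted p of 0.1. RELA, a subunit of NF-kappa B and the most abundant factor listed, was the only 1 of 10 that did, at -0.14 (standard error 0.05, adjusted p = 0.0785 from limma). Over all rows with the level for a call, 32.7% did so in either direction, and nothing is read from the count. GFI1, a repressor of IL7R in lymphocytes, was at a mean of 0.0672 FPKM and not tested. Of the glucocorticoid response genes, FKBP5 was at 0.40 (adjusted p = 0.0194 from limma) and PER1 at -0.33 (adjusted p = 0.0368 from limma), while DUSP1 and SGK1, the most abundant, were at -0.01 and 0.04. IL1RAP, from the list of epithelial alarmins and TSLP partners, encodes a chain of the receptor for the alarmin IL33. It was at 0.33 (adjusted p = 0.124 from limma), and TNFSF4, the gene of OX40 ligand, was at 0.07.

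Lymphocyte markers with a row were low. Of 21 markers of T cells, B cells, and innate lymphoid and NK cells, 13 had a row, none had a mean of at least 1 FPKM and 9 were under 0.1 FPKM. PTPRC, the CD45 antigen of all leukocytes, was at 0.0262 to 0.0629 FPKM with the label AAV-GFP and at most 0.0361 FPKM with the label AAV-PDGF-D. IL7R was at 1.78 FPKM or more, and which cells held its transcript was not tested. The rows of CD3D, CD3E and MS4A1 were not analysed here. RAG1 had the highest mean of the 13, at 0.891 FPKM, followed by CD79A at 0.397 FPKM. The 5 T cell markers with a row, CD4 and LCK with the highest means, summed to 0.132 to 0.27 FPKM and 0.136 to 0.509 FPKM in the groups, the 4 B cell markers to 1.03 to 1.34 and 1.47 to 1.59 FPKM, and the 4 innate lymphoid and NK markers to 0.273 to 0.586 and 0.0594 to 1.19 FPKM. The B cell sums did not overlap between the groups, as IL7R did not, and their part in the IL7R difference was not tested. CD79A, a chain of the B cell receptor complex, ran from 0.201 to 0.351 FPKM and from 0.411 to 0.743 FPKM. RAG1 overlapped between the groups. The means of CD79B and PAX5 were lower with the label AAV-PDGF-D, at 0.051 against 0.035 FPKM and 0.0025 against 0 FPKM (AAV-GFP first).

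NKG7 and GNLY, genes of NK cells, were read only in libraries with hemoglobin, and KLRD1, the most abundant NK marker, in all 6. NKG7 was at 0.670 FPKM in AAV-PDGF-D replicate 3 and 0.143 FPKM in AAV-GFP replicate 1 and listed at 0 in the other 4, and GNLY at 0.126 FPKM in AAV-PDGF-D replicate 3 and listed at 0 elsewhere. The IL7R difference was 1.15 without both libraries with hemoglobin reads, against 0.97 with them. Of 10 macrophage and dendritic cell markers, 8 had a row, and their sum was 18.6 to 20.8 FPKM with the label AAV-GFP and 21.3 to 22.7 FPKM with the label AAV-PDGF-D, with CD68, a lysosomal protein also made outside macrophages, at a mean of 19.6 FPKM. These sums did not overlap either, and their part in the IL7R difference was not tested. CSF1R, the receptor that defines macrophages, fell from 1.46 ± 0.369 to 0.697 ± 0.11 FPKM (SD, n = 3 each), with a log2 difference of -0.95 (standard error 0.23, adjusted p = 0.0230 from limma).

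**Figure D4:**
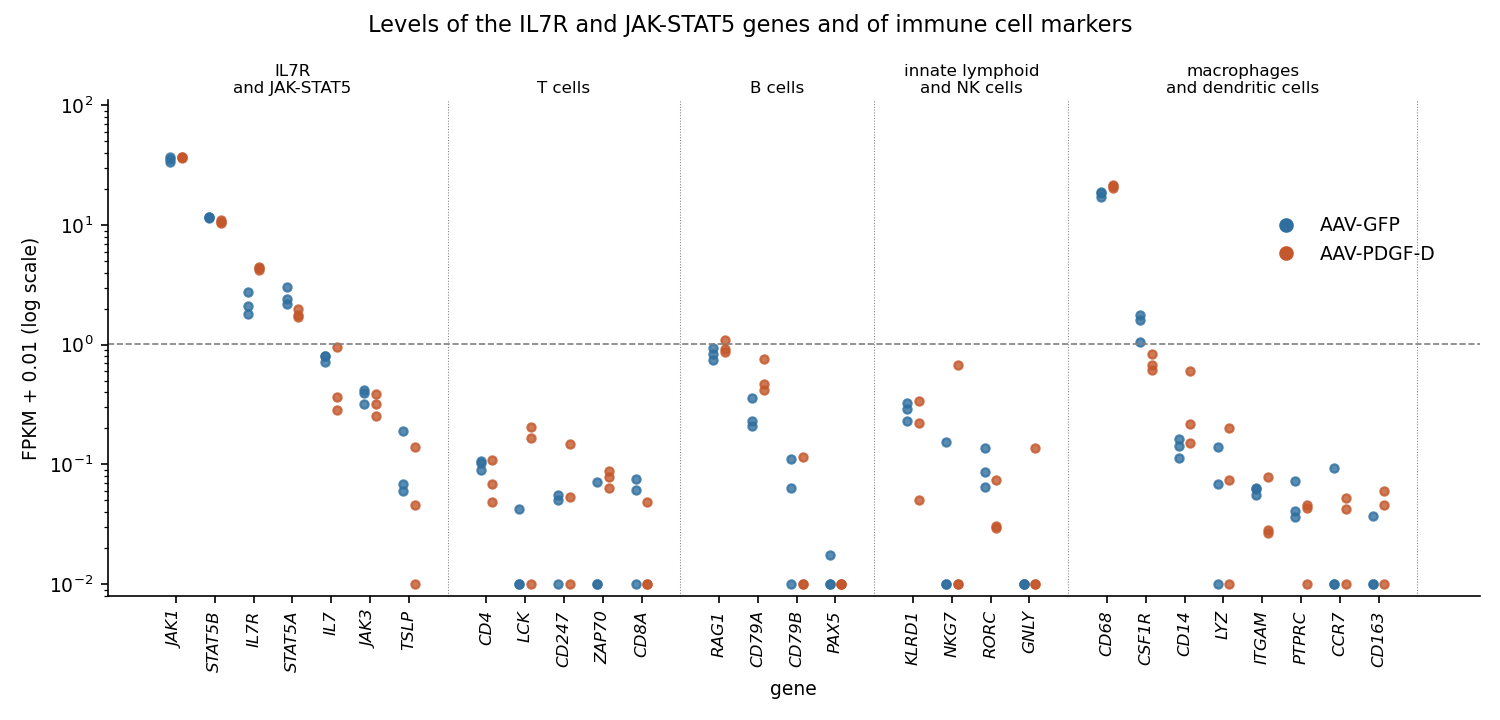
FPKM + 0.01 (vertical axis, log scale) of the 7 genes with a row and of markers of T cells, B cells, innate lymphoid and NK cells, and macrophages and dendritic cells, with 1 point per library (blue AAV-GFP, orange AAV-PDGF-D). The dashed line marks a level of 1 FPKM, and points at the bottom are listed at 0. No lymphocyte marker has a mean of at least 1 FPKM, and IL7R is never below 1.78 FPKM.

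The rows most like IL7R in their profile over the 6 libraries were POLR3G, TPX2, DAW1, UBASH3B and KIF11, out of 11049 named rows whose mean reached 1 FPKM. Likeness was the root mean square difference between log2(FPKM + 0.1) values after centring each gene on its mean, and it ran from 0.0700 for POLR3G to 0.125 for KIF11, against a median of 0.504 over all rows compared. POLR3G encodes a subunit of RNA polymerase III. Its level was 5.10, 4.03 and 3.43 FPKM in AAV-GFP replicates 1, 2 and 3 and 7.84, 7.505 and 7.04 FPKM in AAV-PDGF-D replicates 1, 2 and 3, the same order of libraries as for IL7R. TPX2 and KIF11 serve the mitotic spindle, DAW1 helps to assemble dynein arms, and UBASH3B encodes a tyrosine phosphatase. Among the listed genes, the nearest to IL7R by this measure was JAK1 at 0.483 and the farthest IL7 at 0.953. These values were found in the comparison for which IL7R was picked, and the libraries share their labels and scaling, so they carry no test.

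**Figure D5:**
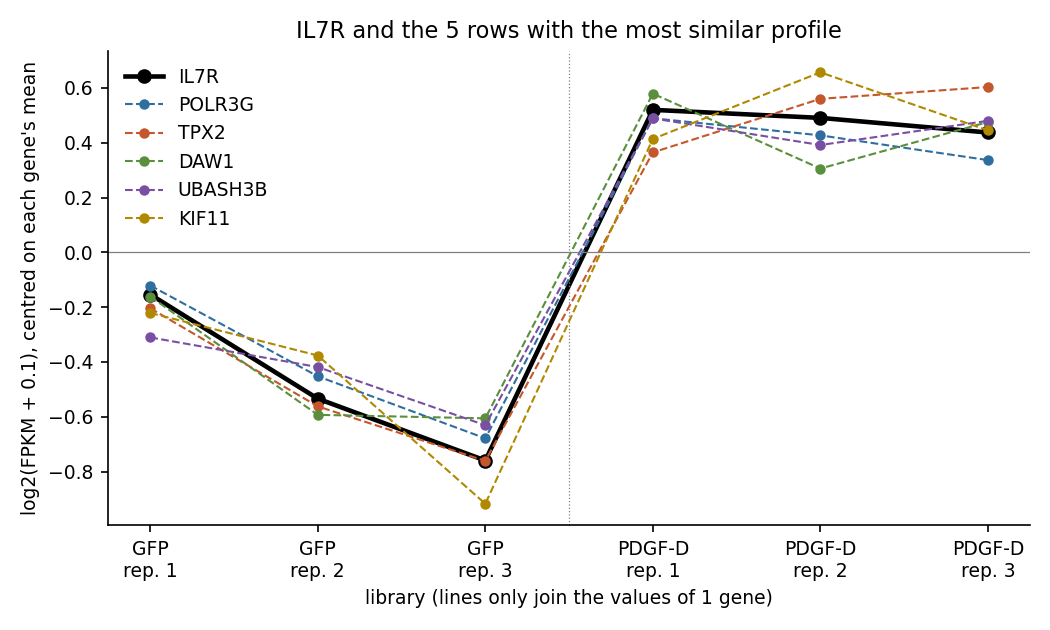
Log2(FPKM + 0.1) centred on each gene's mean (vertical axis) in the 6 libraries (horizontal axis), for IL7R (black) and the 5 rows with the smallest root mean square difference from it. All 6 rows are below their mean in the 3 libraries labelled AAV-GFP, lowest in AAV-GFP replicate 3, and above it in the 3 labelled AAV-PDGF-D.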

How the data were processed

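The deposited table holds FPKM values that the authors computed for each gene and library. They used STAR 2.4.2a for alignment and RSEM 1.2.29 for quantification, on mm10 of the mouse, per the submitters' processing notes. How the human rows were annotated is not given in the sources used here. Without counts or gene lengths, no count model was run. The test was limma (version 3.58.1, R 4.3.3) with its variance trend, on log2(FPKM + 0.1) of the 13821 rows whose mean reached 0.1 FPKM, with Benjamini-Hochberg adjusted p-values. This scale understates changes of low genes. A call needed a mean of 1 FPKM or more (11444 rows), a fold of 1.5 or more and an adjusted p up to 0.1. An exact permutation of 3 against 3 libraries cannot go below p = 0.1. The fit was tested on simulated data.

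The genes and lists were chosen with earlier results of these data known. Named were all listed genes with a row, called pathway genes, the 2 most abundant of each list, preset markers, PDGFD, PDGFRB and the 5 rows most like IL7R. Others passing an adjusted p, called pigment genes, further cell type markers, and the remaining JAK, STAT and SOCS genes, receptors and transcription factors, were named after their values were seen. A few genes of these lists are not reported here. Alternatives were other pseudocounts, filters, scalings, variance models, call rules, a replicate block and left-out libraries. No sequences are shown, since the reference used here covers mouse genes and the rows are human.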

Additional observations from a re-analysis of the deposited data

How the results depend on the processing

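The IL7R difference of 0.97 was 0.75 with a pseudocount of 1 and ran from 0.83 to 1.13 with 1 library left out, which describes the libraries on which IL7R was picked. Against 230 rows called higher and 200 lower, there were 148 and 110 with a pseudocount of 1, 2396 and 1341 with no fold threshold, 252 and 323 with TPM scaling, and 332 and 321 with no minimum mean FPKM. With 1 library left out there were 213 to 271 higher and 140 to 232 lower. Without a fold threshold, 1 listed gene (STAT5A, at -0.45) was called lower, and 10 genes of the surrounding lists were called higher and 10 lower. These were 0 and 0 as reported and 0 to 1 each with 1 library left out (SOCS3 higher, PTPN6 lower). With TPM scaling 1 was called lower (EPOR, at -0.69), with upper quartile scaling 1 (PTPN6), and with no minimum mean FPKM 2 (EPOR and PTGS2, at -0.63 and -1.14). The cause was not tested.

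With the replicate number as a block, 234 rows were called higher and 199 lower, the IL7R difference was 0.97 and no call of a listed gene changed. Deviations of same-numbered libraries correlated at -0.20, 0.0039 and -0.13. Pairs with unlike numbers ran from -0.19 to 0.29. The highest was AAV-GFP replicate 1 with AAV-PDGF-D replicate 3, both with hemoglobin reads. With 3 libraries per group, these correlations cannot show whether libraries were paired or shared a batch. Without counts, the depth behind values as low as those of TSLP, JAK3 and IL7 cannot be given.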
